A study of Homo sapiens with 12 samples.

Results

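The 20q13 segment of chromosome 20, taken from position 45000000 to 56500000 of the deposited files, held 1527 of the 196119 rows in the 6 m6A peak lists and the table of compared regions. A row belonged to the segment when its peak started between those bounds. The lists gave 1373 of 178818 peaks and the comparison 154 of 17301 regions. One peak can stand in several rows, 1 per transcript isoform, so rows on one strand were joined when 1 or more exonic bases were common to them. The joined rows formed 105 merged regions in 43 genes, of which 101 regions in 42 genes had a peak in at least 1 library. The other 4 regions, in KCNG1, SULF2, BCAS1 and CASS4, were compared by the authors without a listed peak in any library, and CASS4 had no other region. No merged region crossed a bound. The first region before the segment lay in SLC35C2, with peaks in 2 resistant libraries and 0 sensitive ones. The first after it lay in RAB22A, with peaks in 2 and 1. The outermost genes inside were TP53RK and PMEPA1.

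The series compared BT474, a cultured line of human luminal breast cancer in which ERBB2 is amplified, with a derivative of it that resists trastuzumab, a therapeutic antibody to ERBB2 also sold as Herceptin. The labels call these sensitive and resistant cells, and the growth text names the derivative BT474.TtzmR. Each line had 3 immunoprecipitated (IP) and 3 input libraries, 12 in all. Both lines were grown in the same medium with serum. The labels name no drug at harvest and do not say how the derivative was selected or whether it is 1 clone, or whether replicates were separate cultures, so the p-values below speak of spread among libraries that may be technical copies.

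N6-methyladenosine (m6A) is a methyl mark that the METTL3 and METTL14 complex places on adenosines of messenger RNA, mostly near stop codons, in 3′ UTRs and in long exons. Reader proteins that bind it affect splicing, export, translation and decay of the RNA. In MeRIP-seq, an antibody against m6A pulls down RNA fragments, and a peak is a stretch where these exceed the input. Band 20q13 is gained in many breast cancers, BT474 among them, and holds genes studied for that reason, such as NCOA3, ZNF217, BCAS1 and AURKA. The peak lists hold no copy number, so the gain itself was not measured here, and a peak says nothing of how much of the RNA there was.

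The transcription factor gene ADNP, described below, had the one 5′ UTR region found in all 6 libraries. The sequence that the m6A writer prefers is shown at a transcript start of ADNP and was not read from under the peak. GGACT is one form of that sequence. In RefSeq (GRCh38.p14), 1 of 2 annotated ADNP starts holds it at base 37 of the transcript, on the minus strand at chr20:50931388-50931413, with the motif in capitals.
ADNP: gggcaggttcggGGACTcggtccgag
Peaks wholly within the 5′ UTR lay in 7 genes. The promoter table held 4 of them, with 9 starts, and the first 50 transcribed bases of the other ADNP start and of those of PTPN1, STAU1 and PMEPA1 did not hold these letters. On the transcribed strand, 4.90% of the 35116 start windows in the table hold GGACT, and 18.9% hold its first 4 letters, GGAC. The files name no build and their coordinates differ from GRCh38.p14, so whether the letters lie under the ADNP peak was not tested.

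Peaks of the segment were about as many in both lines. Merged regions numbered 77, 73 and 71 in the resistant libraries and 76, 69 and 68 in the sensitive libraries. The means were 73.7 ± 3.06 and 71.0 ± 4.36 (SD, n = 3 each), and the ranges overlapped (exact permutation test, two-sided, p = 0.5, adjusted p = 0.7). The 8 tests on library values form 1 family, with Benjamini-Hochberg adjustment. Exonic bases under peaks were 29305, 28453 and 29862 in the resistant libraries against 29518, 27164 and 26709 in the sensitive libraries. Genes with a peak numbered 37, 38 and 37 in resistant and 37, 37 and 34 in sensitive libraries (exact permutation test, p = 0.6, adjusted p = 0.7).

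The resistant lists were longer as a whole, and the segment took a smaller share of them. All merged regions of a library numbered 12216, 11425 and 11940 in resistant and 10929, 10655 and 9845 in sensitive libraries. The segment made up 0.630%, 0.639% and 0.595% of the resistant lists. In the sensitive lists it made up 0.695%, 0.648% and 0.691%. Every resistant library lay below every sensitive library, with means of 0.621% ± 0.0235 and 0.678% ± 0.0264 (SD, n = 3 each). The exact permutation test gave p = 0.1, the smallest that 3 against 3 allow, and an adjusted p of 0.4. With the same number of top peaks taken from each library, the difference shrank from -0.0566 to -0.0117 percentage points (exact permutation test, p = 0.8). At a peak p below 1e-05 the difference grew to -0.093, and with peaks counted as listed to -0.0947 percentage points (exact permutation test, p = 0.1 for each). Among peaks with a fold over input of at least 5 it turned to 0.0223 percentage points, higher in resistant libraries (exact permutation test, p = 1.0). The sign was the same in 11 of 12 settings. Read depth per library is unknown, and the length of a list is the denominator of its share. The part of list length in the difference was not tested.

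The rest of chromosome 20 gave the same order, and the other gained segments of this line did not separate the groups. Per merged region of the rest of chromosome 20, the segment had 0.230, 0.226 and 0.218 regions in resistant libraries and 0.265, 0.233 and 0.240 in sensitive libraries. This ratio, chosen after seeing the data, had means of 0.225 ± 0.00616 and 0.246 ± 0.0166 (SD, n = 3 each; exact permutation test, p = 0.1, adjusted p = 0.4). Its difference shrank from -0.0215 to -0.0112 with equal numbers of top peaks (exact permutation test, p = 0.3). Among peaks with a fold over input of at least 5 it was -0.00256. At a peak p below 1e-05 it was -0.033 (exact permutation test, p = 0.1), and with peaks counted as listed -0.0351 (exact permutation test, p = 0.2). The sign was the same in 12 of 12 settings. Per merged region of 17q12, the segment around ERBB2 from 36 to 39 Mb of chromosome 17, the means were 0.954 ± 0.0232 and 0.975 ± 0.0704 (SD, n = 3 each; exact permutation test, p = 0.7). Per merged region of 17q23, from 55 to 62 Mb, they were 0.954 ± 0.0496 and 0.992 ± 0.0637 (SD, n = 3 each; exact permutation test, p = 0.4). The ratio to 17q12 changed sign without replicate 3 of the sensitive cells.

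**Figure D1:**
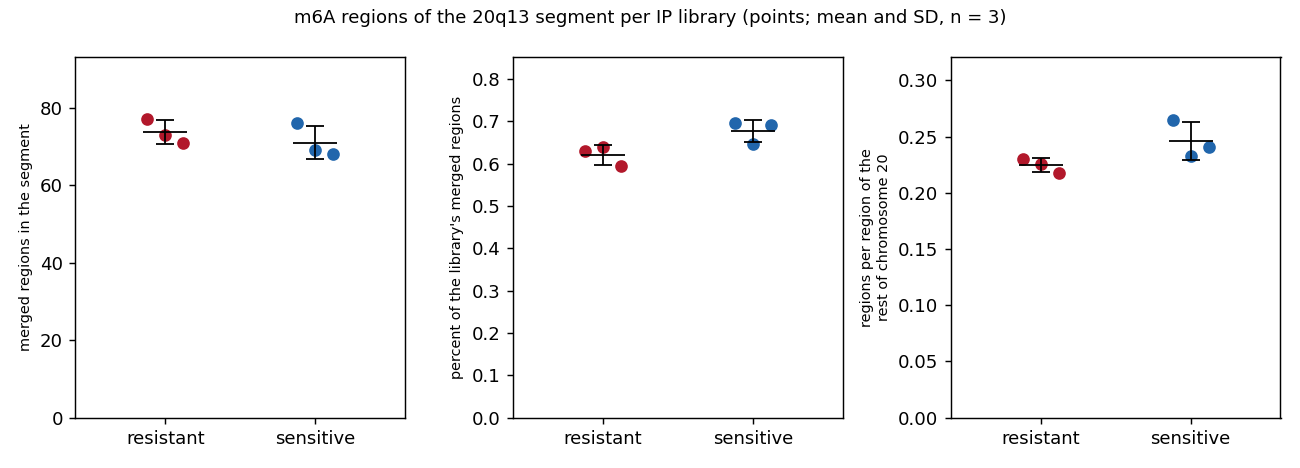
Merged m6A regions of the 20q13 segment (left), their percentage of all merged regions of the library (middle) and their number per merged region of the rest of chromosome 20 (right), for 3 resistant and 3 sensitive IP libraries. Points are libraries and bars give the mean and SD. The counts run from 71 to 77 in resistant and from 68 to 76 in sensitive libraries, while the resistant shares, 0.595% to 0.639%, all lie below the sensitive shares, 0.648% to 0.695%.

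Most regions of the segment lay in 3′ UTRs and coding sequence. By the feature the authors gave most of its rows, 43 of the 101 regions lay in the 3′ UTR, 34 in coding sequence, 18 across the stop codon into the 3′ UTR, 4 in the 5′ UTR and 2 across the start codon. Of the 43 regions in 3′ UTRs, 17 had a peak in all 6 libraries, as had 11 of the 18 across the stop codon. Listed peaks wholly in the 3′ UTR made up 28.5% ± 2.31 of the segment's peaks in resistant and 30.7% ± 5.35 in sensitive libraries (SD, n = 3 each; exact permutation test, p = 0.6). Those wholly in coding sequence made up 39.1% ± 0.576 and 41.0% ± 5.23 (SD, n = 3 each; exact permutation test, p = 0.7). Neither share differed beyond its spread. Within each list, the median fold of IP over input, as the authors' peak caller gave it, was 2.62 to 2.97 in the segment and 3.39 to 3.67 over all peaks. Here and below, such folds describe a peak within its own list.

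Regions were unevenly spread along the segment. The longest stretch without a peak ran 2.26 Mb from BCAS1 to FAM210B, the next 1.42 Mb from ZFP64 to ZNF217 and the one after 0.953 Mb from SULF2 to PREX1. No merged region with a peak started from 51 to 52 Mb or from 53 to 54 Mb of the chromosome. The fullest 1 Mb windows, from 47 to 48 Mb and from 48 to 49 Mb, held 16 regions each. Of 20 genes looked up for their place in the amplicon or their role, 16 had a peak. No peak was listed for BCAS4, CYP24A1 (a vitamin D hydroxylase), CSE1L (a nuclear export factor) or SNAI1 (a repressor of E-cadherin). The table of compared regions did not list these 4 genes either.

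**Figure D2:**
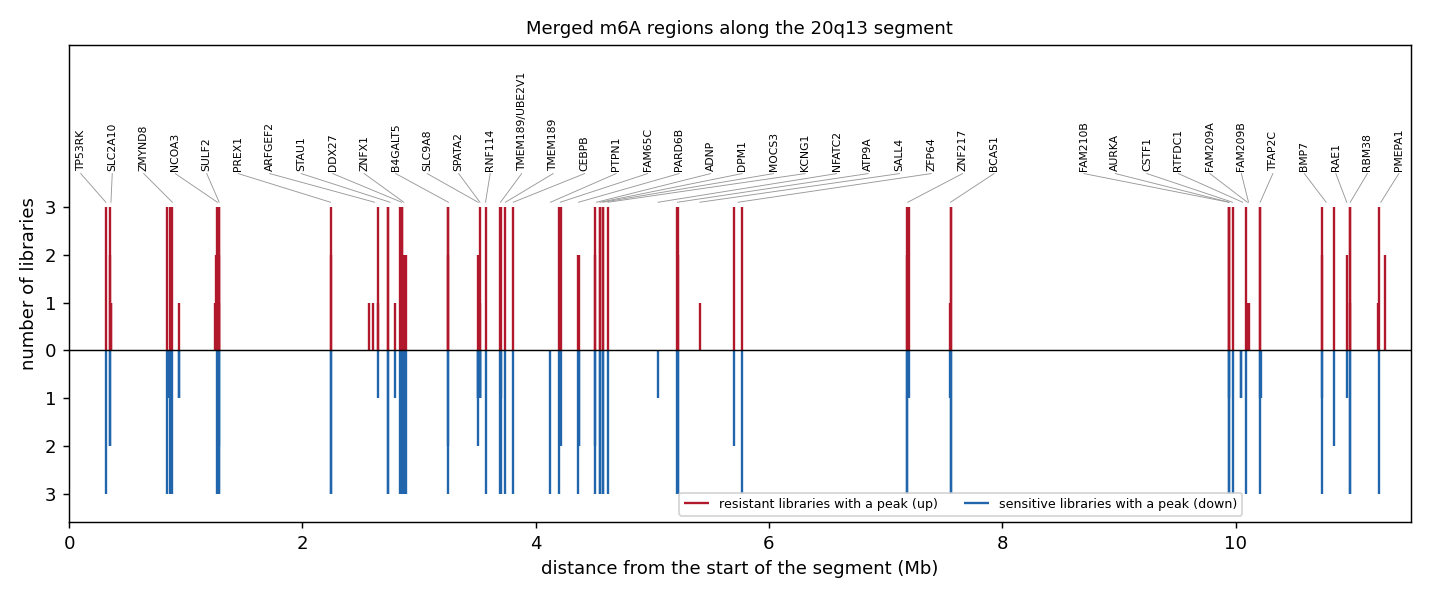
Number of resistant libraries (red, upward) and sensitive libraries (blue, downward) with a peak in each merged region, against distance from the start of the segment in Mb. Genes are named above, with lines to their mean position. In 42 of the 101 regions with a peak the lines reach 3 in both directions, and the widest empty stretch, 2.26 Mb, lies between BCAS1 and FAM210B.

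Genes of the segment were mostly methylated in both lines. A peak in all 6 libraries was found for 32 of the 42 genes (76.2%), against 4670 of 8360 genes (55.9%) over the whole lists. For merged regions this was 42 of 101 (41.6%) against 34.8% of 16413. A peak in resistant libraries only was found in 17 regions (16.8%, against 23.6% of all regions) and in sensitive libraries only in 14 (13.9%, against 13.4%). A single library had the peak in 25 regions (24.8%, against 27.6%). In 0 regions did all 3 resistant libraries and no sensitive library have a peak, a pattern of 2.16% of all regions. In 1 region, that of PTPN1, all 3 sensitive libraries and no resistant library had one, a pattern of 0.701% of all regions. Within the segment, the overlap of bases under peaks (bases in both of 2 libraries divided by bases in either) was 0.673 to 0.742 between resistant libraries, 0.683 to 0.724 between sensitive libraries and 0.629 to 0.732 across the lines. A resistant and a sensitive library thus shared about as many bases as 2 libraries of 1 line.

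PTPN1, the tyrosine phosphatase PTP1B that acts on insulin and other receptor signals, was the 1 gene of the segment with a peak in every library of a line and none of the other. Its region (chromosome 20, 49126950 to 49181506, in exons on both sides of an intron) lies in the 5′ UTR and the start of the coding sequence. The sensitive peaks had folds over input of 3.86, 2.16 and 2.30 and covered 121, 60 and 153 exonic bases, and no resistant library had a peak. The peaks were weak: 2 of the 3 remained when equal numbers of top peaks were taken from each library, and 0 at a peak p below 1e-05. The authors' deposited table has no PTPN1 row in the segment, so no fold between the lines was given. Next in difference was ARFGEF2, a factor that activates ARF GTPases for traffic from the Golgi, with a peak in 3 resistant libraries and 1 sensitive library. The other genes with a peak in some libraries were RAE1 (2 resistant and 1 sensitive), SLC9A8 (2 and 2), SLC2A10 and SPATA2 (3 and 2 each), SALL4, FAM209A and FAM209B (1 and 0 each) and NFATC2 (0 and 1). FAM209A and FAM209B are near-identical neighbours, so reads may not be assigned to one of them with certainty.

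In the authors' deposited table, the segment's shares of rows called higher and lower in resistant cells lay near those of all rows. The authors called a row whose p was under 0.05 and whose fold reached 1.5, or 0.667 in the other direction. Of the 154 rows in the authors' deposited table, 14 were called higher (background 9.88% of all rows) and 0 lower (background 1.75%). At a deposited p below 0.05 without the limit on fold, 109 of these 154 rows (70.8%) passed, against 45.2% of all rows in the authors' deposited table. This share was 78.4% in the 17q12 segment, 56.5% in the rest of chromosome 20 and 50.5% in the 17q23 segment. Rows of 1 gene repeat over its isoforms, and all 48 rows of ZMYND8 were among the 109, so these rows are not a count of independent regions. Adjusted over all rows by the Benjamini-Hochberg method, 12 of the 14 remained called. The 14 rows lay in 6 merged regions of 6 genes: SULF2 (5 rows), TMEM189 (3), TFAP2C (2), PMEPA1 (2), B4GALT5 (1) and ZFP64 (1). Merged, 6 of 47 regions were called higher and 0 lower, against 850 and 154 of 7684 in the whole table. By gene, 6 of the 28 compared had a row called higher (background 14.2% of 5553 genes). The shares of rows and merged regions called higher or lower lay near the background. The gene lists below hold too few compared genes to be read against it, and none of them was tested.

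The segment had a lower median fold than the whole of the authors' deposited table, by rows more than by merged regions. The median log2 fold of its rows was 0.17, a fold of 1.13, against 0.32, a fold of 1.25, over all rows in the authors' deposited table. Over merged regions the medians were 0.26 and 0.32 in the authors' deposited table, and 37 of 47 regions (78.7%) had a fold above 1, against 72.6% of all merged regions. Over rows again, the rest of chromosome 20 had a median log2 fold of 0.29, the 17q12 segment 0.25 and the 17q23 segment 0.28 in the authors' deposited table. These stand beside the row median of 0.17 of the 20q13 segment, and their medians over merged regions were not computed. ZMYND8 alone gave 48 of the 154 rows because it is listed under many isoforms. Divided by the median fold of the authors' deposited table, only the 2 PMEPA1 rows stayed higher and 16 rows fell past the lower limit, most of them in 1 region of ZMYND8, the others in ZNFX1 and TFAP2C.

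Among the transcription and chromatin genes, 7 of the 9 with a peak had one in all 6 libraries, and 2 of the 7 compared had a called region. This list held 14 genes, and the background is the 14.2% given above. TFAP2C encodes AP-2 gamma, a transcription factor of luminal breast cells. Its region at chromosome 20, 55206358 to 55206716, which takes in 5′ UTR and coding bases, had folds over input of 2.61, 2.18 and 2.16 in the resistant libraries and of 2.25 in sensitive replicate 3 alone. The authors' deposited table gave this TFAP2C region folds of 1.63 to 1.66 (deposited p = 0.00468 to 0.00562). A second TFAP2C region over the stop codon (55212936 to 55213444) had a peak in all 6 libraries and 1.09 to 1.10 in the authors' deposited table. Another TFAP2C region, in the 3′ UTR (55214220 to 55214339), was given 0.715 as its fold (deposited p = 0.0245) by the authors' deposited table, not past the lower limit, with a peak in 1 sensitive library. No test compared the TFAP2C regions with each other.

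ZFP64, a zinc finger factor, had a region across its stop codon (50768353 to 50769583) with folds over input of 6.89, 7.5 and 6.96 in resistant and 5.19, 3.33 and 4.45 in sensitive libraries. The 3 rows of this ZFP64 region had folds of 1.48 to 1.5 (deposited p = 3.72e-06 to 5.62e-06) in the authors' deposited table, around the limit of 1.5, so that 1 was called. CEBPB, an intronless gene for a transcription factor of inflammation and mammary growth, was covered over much of its length. Its peaks took up 1571, 1630 and 1541 exonic bases in resistant and 1245, 1452 and 1363 in sensitive libraries, and the groups did not overlap. The authors' deposited table gave CEBPB a fold of 1.34 (deposited p = 6.31e-16), under the limit of a call.

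NCOA3, a steroid receptor coactivator also known as AIB1, had 7 merged regions, the most of any gene. The NCOA3 peaks covered 1221, 1160 and 1137 bases in resistant and 935, 992 and 829 in sensitive libraries, again without overlap. Of its 3 compared regions, 2 had folds above 1 and 1 below in the authors' deposited table, from 0.865 to 1.27, and none was called. ZMYND8, a chromatin reader, had 6 merged regions, 3 of them in all 6 libraries. Its coding region at 45853045 to 45855981, with a peak in sensitive replicate 1 only, had folds of 0.799 to 0.829 (deposited p = 0.00933 to 0.0224) in the authors' deposited table. The other 3 compared ZMYND8 regions, each with a peak in all 6 libraries, stood above 1 in the authors' deposited table, at 1.11 to 1.21 (deposited p = 0.000135 to 0.0105), and none of the 4 was called. ZNF217, a zinc finger gene long studied as a driver of the amplicon, had 1 region (52185499 to 52193816) in all 6 libraries. This ZNF217 region took in coding sequence and 3′ UTR bases and stood at 1.10 to 1.11 in the authors' deposited table. A ZNF217 region over the start codon (52199306 to 52199530) had a peak in 3 resistant libraries and 1 sensitive library and no compared row.

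ADNP carried its 5′ UTR region (49547480 to 49547869) in all 6 libraries, with folds over input of 33.1, 20.9 and 19.7 in resistant and 19.8, 28.1 and 31.1 in sensitive libraries. These ADNP folds overlapped and ranked within the top 5.06% of merged regions of each list.

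Among the signalling and adhesion genes, a list of 10, 7 had a peak, 6 of them in all 6 libraries, and 2 of the 5 compared had a called region (background 14.2%). PMEPA1, a membrane protein that dampens TGF-beta and androgen signals, had the largest called fold of the segment. Its 5′ UTR region (56284659 to 56284958) had folds over input of 17.9 and 20.9 in resistant replicates 1 and 3, and no peak in replicate 2 or in any sensitive library. The authors' deposited table gave this PMEPA1 region folds of 2.20 and 2.68 (deposited p = 0.000891 and 0.0355). After Benjamini-Hochberg adjustment over all rows of the authors' deposited table, the row at 2.20 kept its call (adjusted p = 0.00682) and the row at 2.68 did not (adjusted p = 0.0889). The PMEPA1 region over the stop codon (56226890 to 56227607) was in all 6 libraries and stood at 1.10 to 1.18 in the authors' deposited table.

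SULF2, an extracellular sulfatase that trims heparan sulfate and so releases growth factors, had a called region at 46286914 to 46288466 in the 3′ UTR and the end of the coding sequence. It had folds over input of 1.95 and 4.27 in resistant replicates 1 and 2 and no peak in the other 4 libraries. The authors' deposited table gave this SULF2 region folds of 1.56 to 1.64 (deposited p = 0.00380 to 0.00933). The SULF2 3′ UTR region next to it (46286269 to 46286689) had a peak in all 6 libraries. Another SULF2 3′ UTR region (46285776 to 46285866) had no listed peak in any library. Its fold in the authors' deposited table, 0.277 (deposited p = 0.217), was the lowest of the segment and was not called. SULF2 and NCOA3 are neighbours that end toward each other on opposite strands. The library kit keeps strand, per the labels, but how strand entered peak calling is not given in the sources used here.

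BMP7, a secreted ligand of the TGF-beta family, had a 3′ UTR region (55744702 to 55745735) with folds over input of 30.9, 39.1 and 31.9 in resistant and 86.4, 88.7 and 22.6 in sensitive libraries. The highest and the lowest of these BMP7 values were both from sensitive libraries. PREX1, an activator of RAC that acts downstream of ERBB receptors, had 3′ UTR regions in both lines, with folds of 1.11 and 1.3 in the authors' deposited table, neither called.

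Among genes for RNA binding, processing and export, all 6 listed had a peak, 5 of them in all 6 libraries, and none of the 3 compared had a called region (background 14.2%). ZNFX1, an RNA helicase of antiviral defence, showed the widest gap in covered bases. Its peaks covered 826, 845 and 783 exonic bases in the resistant libraries and 1853, 1560 and 1766 in the sensitive libraries. The means were 818 ± 31.8 and 1726 ± 150 (SD, n = 3 each). The gap lay largely in a region of the 3′ UTR and the end of the coding sequence (47862943 to 47863935), with folds over input of 56.6, 47.3 and 48.6 in the sensitive libraries, 20.9 in resistant replicate 3 and no peak in the other 2. The authors' deposited table gave this ZNFX1 region folds of 0.792 and 0.799 (deposited p = 0.0457 and 0.0537), so it was not called. DDX27, a helicase of ribosome assembly, lies on the opposite strand and overlaps ZNFX1 in position. Its peaks covered 863, 1131 and 923 bases in resistant and 893, 982 and 1042 in sensitive libraries, and the groups overlapped.

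STAU1, which binds double-stranded RNA and guides its decay and transport, had regions in coding sequence and the 3′ UTR in all 6 libraries. The STAU1 3′ UTR region (47730714 to 47731405) stood at 1.12 to 1.13 in the authors' deposited table. RBM38, an RNA-binding protein induced by p53, had 2 of its 3 regions in all 6 libraries. Of the mitosis and nuclear transport list of 3 genes, AURKA, the mitotic kinase Aurora A, had 1 region over the stop codon (54944721 to 54945404). The AURKA folds over input were 3.43, 3.22 and 3.38 in resistant and 3.39, 3.19 and 3.07 in sensitive libraries, and its covered bases, 566 to 684, overlapped between the lines. RAE1, an export and spindle factor, stood at 1.11 to 1.13 in the authors' deposited table and was not called.

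Among the ubiquitin genes, a list of 4, 3 had a peak and were compared, and none had a called region (background 14.2%). UBE2V1, a partner of the enzyme that builds lysine 63 chains, overlaps TMEM189 and the readthrough transcript TMEM189-UBE2V1, and rows of the 3 names merged into shared regions. Reads of these regions cannot be given to one gene. Bases under UBE2V1 peaks were 907, 918 and 930 in resistant and 1110, 1067 and 1312 in sensitive libraries, without overlap, and the 2 compared regions shared by the 3 names had folds of 0.885 to 0.914 in the authors' deposited table.

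TMEM189 (now named PEDS1), the desaturase that makes plasmalogen lipids, had a 3′ UTR region of its own at 48740930 to 48741577 with a peak in every library. Its folds over input were 5.17, 3.61 and 4.61 in resistant and 3.0, 2.56 and 2.14 in sensitive libraries. The authors' deposited table gave this TMEM189 region folds of 1.55 to 1.57 (deposited p = 1.32e-10 to 3.63e-10), the smallest p among the called rows of the segment. The 2 shared regions were not called.

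B4GALT5, which adds galactose in the synthesis of lactosylceramide, was the 1 gene of the 2 compared in the glycosylation and metabolism list with a called region (background 14.2%). That list held 7 genes, of which 3 had a peak, each in all 6 libraries. The called B4GALT5 region in the 3′ UTR (48251753 to 48251872) had folds over input of 3.6 and 3.3 in resistant replicates 1 and 2 and no peak in the other 4. The authors' deposited table gave it a fold of 1.84 (deposited p = 0.0257), a call that was lost after Benjamini-Hochberg adjustment over all rows (adjusted p = 0.0720). MOCS3, a sulfur carrier enzyme for molybdenum cofactor and tRNA, had 601, 602 and 451 bases under peaks in resistant and 720, 750 and 960 in sensitive libraries, without overlap. The authors' deposited table gave its compared region 0.896 (deposited p = 0.1), not a call.

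Among transporters and channels, a list of 6, 3 had a peak, 1 in all 6 libraries, and 1 was compared. KCNG1, a modifier subunit of potassium channels, had the highest fold of the segment in the authors' deposited table, 5.98 (deposited p = 0.160). That KCNG1 region (49620969 to 49621029) had no listed peak in any library and was not called. In the membrane traffic list of 3 genes, ARFGEF2 stood at 1.33 (deposited p = 0.0117), not a call by the authors' deposited table, and ATP9A, a lipid flippase, had peaks in all 6 libraries.

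FAM210B, a mitochondrial protein gene, and BCAS1, a gene found in amplified breast tumour DNA that also marks myelinating cells, belonged to none of these lists. The FAM210B 3′ UTR region (54942286 to 54942883) had folds over input of 92.8, 94.4 and 185 in resistant and 78.2, 90 and 57 in sensitive libraries. Within their lists these FAM210B peaks ranked 17, 18 and 6 among resistant and 60, 40 and 47 among sensitive merged regions, and ranks from lists of different length show no change. The authors' deposited table gave the FAM210B region a fold of 1.26 (deposited p = 3.02e-10), under the limit of a call.

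BCAS1 had the most bases under peaks of any gene in the segment, with 2987, 3280 and 3205 in resistant and 2924, 2870 and 2707 in sensitive libraries, without overlap. Its longest peak covered 76.6% to 96.7% of a transcript, depending on the library. That of CEBPB covered 35.5% to 88.7%. The 11 compared rows of the long BCAS1 region had folds of 1.12 to 1.19 in the authors' deposited table, and none was called.

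Counted over genes, bases under peaks did not overlap between the lines in some of the 42 genes with a peak. In 8 genes (19.0%; background 17.9%) every resistant library lay above every sensitive library: NCOA3, SULF2, ARFGEF2, B4GALT5, CEBPB, BCAS1, FAM210B and PMEPA1. The resistant count was thus near the background, in lists that were longer for resistant cells as a whole. In 5 genes (11.9%; background 4.46%) every sensitive library lay above: ZNFX1, UBE2V1, TMEM189-UBE2V1, PTPN1 and MOCS3. Of these 5, UBE2V1 and TMEM189-UBE2V1 share their regions. In the other 29 genes the lines overlapped.

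**Figure D3:**
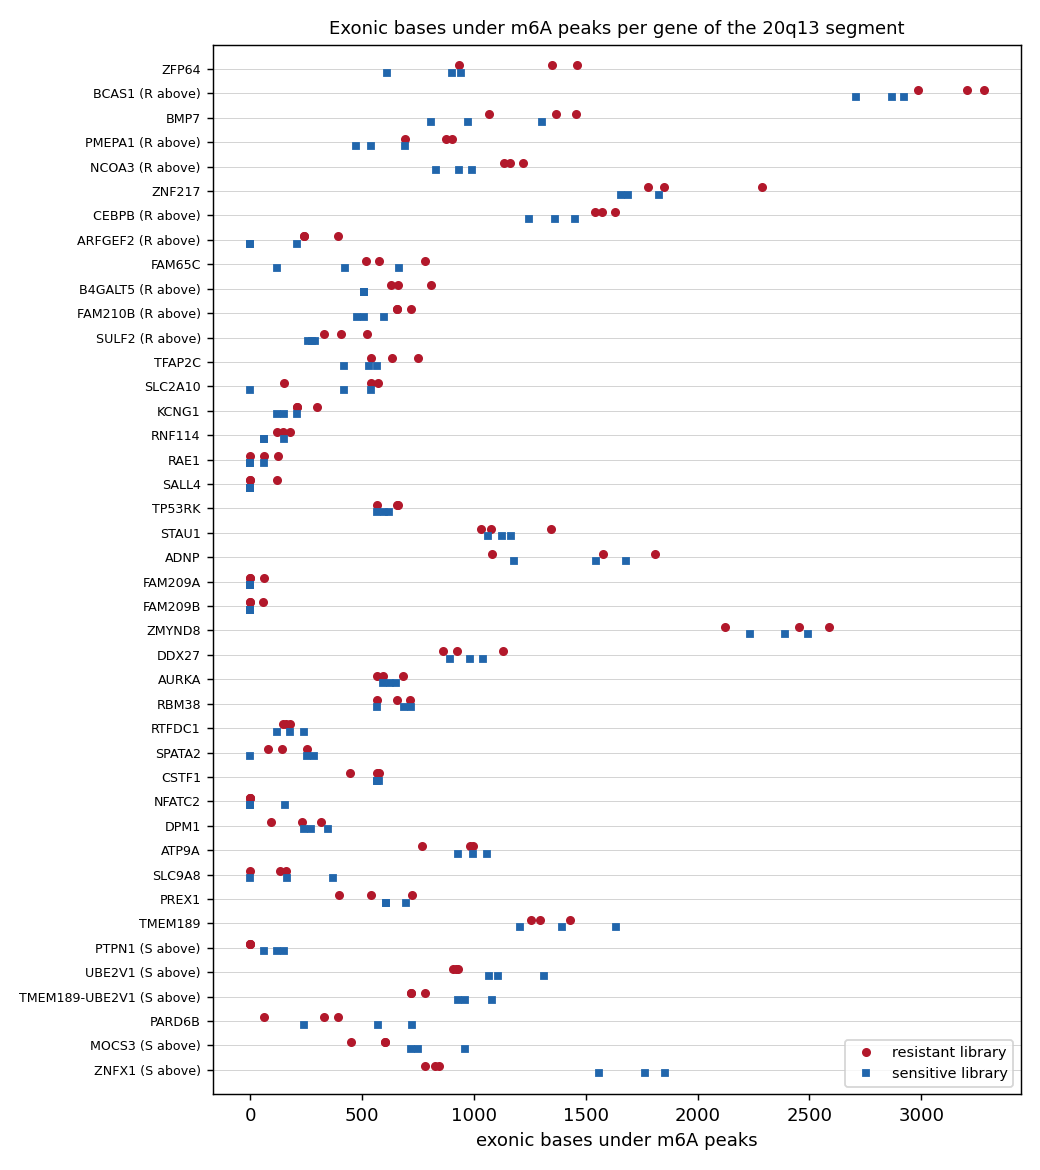
Exonic bases under m6A peaks for each of the 42 genes of the segment with a peak, in resistant (red circles) and sensitive (blue squares) libraries, ordered by the difference of the means. Genes marked R above or S above had no overlap between the lines. ZNFX1, at the bottom, has 783 to 845 bases in resistant and 1560 to 1853 in sensitive libraries.

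The origin of the libraries was checked on 9 luminal and 3 other marker genes outside the segment. Of the luminal genes, 7 had a peak in all 6 libraries, ERBB2 among them, while GATA3 lacked one in 1 resistant library and ESR1 had one in 1 resistant library alone. PTPRC, of blood cells, had no peak, VIM had one in 1 library of each line and COL1A1, a collagen of fibroblasts, had one in all 6. A peak shows a methylated RNA, and expression was not measured here.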

How the data were processed

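Peak lists of 6 IP libraries and the authors' table of compared regions were used, and no reads of the input libraries were read. The submitters' processing notes name HISAT2, with no version. The sources used here give neither peak caller nor build, nor say how the comparison used the replicates. Per the file headers, the authors gave each peak and each compared region a fold, which is a ratio, and a p-value. Whether that p was adjusted is not stated. Depth per library is unknown. The lists named s1 to s3 were taken as the sensitive libraries of the same number.

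Positions in the files count from 0 and those printed from 1. Rows were merged, counted and compared with Python 3.11.15, pandas 2.3.3, numpy 2.4.6 and scipy 1.17.1. The merging was tested on simulated data. Library values were compared with exact permutation tests, two-sided, over 3 against 3 libraries. The authors' calls were recomputed and were exactly the rows of their deposited called tables. Of the 43 gene names, 39 are current RefSeq symbols and 4 older ones. Named genes are those with a called region, those with a peak in every library of one line and none of the other, the 5 with the most merged regions, and 20 genes of the amplicon or its roles; genes named for folds without a listed peak, for covered bases or for rank were chosen after their values were seen. The segment, the genes and the role lists were chosen with earlier results of these data known. Replicate numbers were not taken as pairs. Peak sequences need a genome of the files' build and were not used here.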

Additional observations from a re-analysis of the deposited data

How the results depend on the processing

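Deviations of same-numbered libraries correlated at 0.00987, -0.0502 and -0.00625, and those of differently numbered libraries at -0.0289 to 0.0359. These values show no shared effect of replicate number, but cannot tell whether same-numbered libraries were prepared together. With the replicate block, the difference in the segment's share was -0.0566 points, in merged regions 2.67 and in genes 1.33, as without it, and the sign-flip p over the 8 differences lay between 0.25, the smallest that 3 pairs allow, and 0.75. Neither this nor the test without the block can reach 0.05 with these libraries, so their p-values say nothing of stability. Equal lists of the 26028 top peaks turned the difference in merged regions to -3.0, in genes to -0.667 and in the ratio to 17q23 to 0.00355. A peak p below 1e-05 kept the sign of every difference, with -0.093 points of share and -0.033 for the ratio to the rest of chromosome 20. Peaks with a fold of at least 5 turned the difference in the segment's share to 0.0223 percentage points, in the ratio to 17q23 to 0.0145 and in the 3′ UTR share to 0.621 points. One row per merged region turned the difference in the coding share to 1.26 points. Leaving out each library in turn gave differences of 1.0 to 5.17 merged regions, 0.333 to 1.83 genes, -0.0717 to -0.0433 points of share, -0.0615 to 0.00556 for the ratio to 17q12, -0.0744 to -0.0123 for 17q23 and -0.028 to -0.0121 for the rest of chromosome 20. The 3′ UTR share differed by -5.05 to 0.274 points, changing sign without sensitive replicate 3, as the ratio to 17q12 did, and the coding share by -4.81 to 0.304 points, changing sign without sensitive replicate 1. In the authors' deposited table, dividing by the median fold left 2 rows higher and 16 lower and a median log2 fold of -0.15. Counting merged regions gave 6 higher with a median log2 fold of 0.26, 1 value per gene a median of 0.28, and a limit of 2-fold 2 rows higher. The cause of these changes was not tested, except that the top-peak, merged and scaled values differ by construction in what is counted.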
